A study of Arabidopsis thaliana with 24 samples.

Results

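RNA that took up a label was set against RNA that did not in Arabidopsis thaliana seedlings kept at 27°C. The newly synthesized (NS) fraction carried 4SU (4-thiouracil, a base analog that cells build into RNA as they transcribe), and the pre-existing (PE) fraction was the RNA without it. Any RNA made during labelling that was not captured by its 4SU is counted in the PE fraction too. The 6 arrays, of 24 in the series, were chosen by their titles alone, namely those of labelled and of unlabelled RNA at 27°C after 1 h, in 3 pairs with the same replicate number. Both members of a pair were split from 1 RNA extract on a streptavidin column after the 4SU had been coupled to biotin. The measure was the log2 ratio of NS over PE signal within each pair, which uses no level from time 0.

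All seedlings were whole plants of the ecotype Columbia, 10 days old by the labels (the methods give a slightly higher age). They had been germinated at 22°C, moved to the experimental temperature for 7 days of 12 h light and 12 h dark, and floated on MS medium for 12 h before 4SU was added shortly after dawn. The labels give 1.5 mM 4SU for every labelled sample, while the methods state that the concentration differed between conditions. Further groups of 3 arrays served as comparisons: NS and PE RNA at 17°C after 2 h of labelling, and unfractionated total RNA at 27°C after 1 h with 4SU and at 0 h without it. Roots and shoots were not separated, so fewer cells of a type and less RNA per cell cannot be told apart.

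The share of a transcript that is new at a given moment depends on how fast it is made and how fast it is lost. A transcript with rapid decay is replaced soon, and most of its copies are young. A stable transcript is represented mainly by copies made before the label was given. Transcripts of regulators such as transcription factors and kinases are known to turn over quickly in plants, and those of metabolic enzymes and of the protein synthesis machinery slowly. Plastid genes are transcribed inside the chloroplast, from operons in a circular genome, and many of their mRNAs are known for long lives.

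The values were MAS5 signals (units of brightness on Affymetrix ATH1 arrays), scaled by the authors so that every array had nearly the same trimmed mean, about 500. Since each array has the same mean, the signals hold no record of how much RNA each fraction contained, and an NS/PE ratio is known only up to a constant. The median raw log2 NS/PE ratio was 0.38, 0.39 and 0.37 in the 3 pairs. Each pair was therefore centred on its own median, and "richer in NS RNA" or "richer in PE RNA" means relative to the median transcript. Pearson's r between arrays of 1 fraction was 0.963 to 0.967 for NS and 0.966 to 0.98 for PE RNA, and r between the log2 ratios of different pairs was 0.85 to 0.876. Of 22746 probe sets, 13964 had a signal of at least 50 on all 3 arrays of total RNA at 27°C after 1 h and were tested, and 8377 of these could be given 1 named gene. Of the markers checked, 1 of 8 for shoot (RCA, rubisco activase, mean total signal 22626) had a named probe set. For root, 2 of 8 had one (EXPA7 and EXPA18, expansins, mean total signals 168 and 141). All 3 markers were measured above the limit.

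The ratio spread widely over the transcriptome. From the 5th to the 95th percentile it ran from -1.97 to 1.37 on the log2 scale, whereas the median SD of a probe set over the 3 pairs was 0.254. At an adjusted p under 0.05 and at least 2-fold from the median transcript, 1804 probe sets were richer in NS RNA (12.9% of those tested) and 2571 were richer in PE RNA (18.4%). The tail toward PE RNA was the longer, with a 1st percentile of -2.97 against a 99th percentile of 1.81. In 1802 of the 1804 and in 2436 of the 2571, the signals of the 3 NS arrays did not overlap those of the 3 PE arrays. The calls came from the same arrays, so this separation adds no support to them. It was counted on signals before centring, where the median transcript was brighter in NS than in PE RNA, which favours the NS side. Without centring, the counts were 3542 richer in NS and 1585 richer in PE RNA. The mean total signal lay between the NS and PE means for 11113 of the tested probe sets (79.6%).

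**Figure D1:**
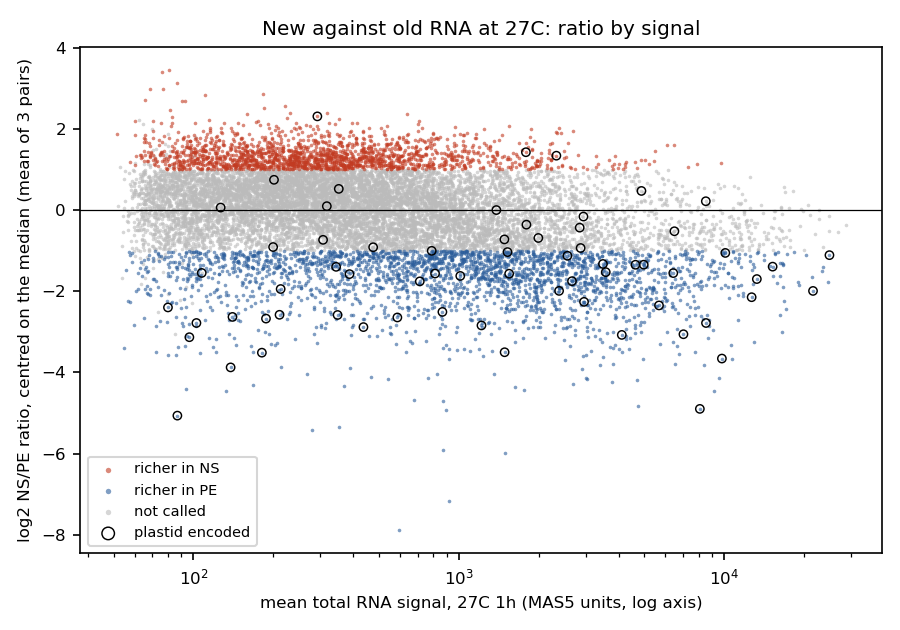
Centred log2 NS/PE ratio at 27°C (mean of 3 pairs, vertical axis) against mean total RNA signal after 1 h (MAS5 units, log axis), 1 point for each of the 13964 probe sets tested, with called probe sets in colour and the 66 plastid-encoded ones circled. Probe sets richer in PE RNA reach further from 0 than those richer in NS RNA and extend to the highest signals.

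The transcripts richest in NS RNA included transcription factors, a receptor kinase, a resistance protein and several genes without a name in the tables. CRR22, a pentatricopeptide repeat protein needed for RNA editing in chloroplasts, had signals of 189, 134 and 169 in NS RNA against 8.32, 9.82 and 20.2 in PE RNA. Its ratio was 3.40 ± 0.72 (log2, SD, n = 3 pairs), the highest of the genes named here. CR4 (also called ACR4), a receptor kinase of the epidermis and root tip, had 336, 265 and 318 in NS against 37.4, 15.5 and 32.9 in PE RNA, a ratio of 3.13 ± 0.50. RPP4, a resistance protein against downy mildew, had 131, 183 and 180.4 in NS against 29.9, 21.9 and 10.8 in PE RNA, a ratio of 2.71 ± 0.97. In all 3 genes every NS array was several times brighter than every PE array. The PE means of these genes lay under the limit of 50, where signals are close to background, and with 32 added to every signal their ratios were 1.80, 2.16 and 1.57.

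Brighter transcripts followed. AT1G18810, which has no name in the tables, was the most even of them, with 1102, 851 and 1062 in NS against 186, 151 and 183 in PE RNA and a ratio of 2.15 ± 0.04. CIL had 865, 876 and 535 in NS against 181, 83.4 and 84.3 in PE RNA. AT5G09460, annotated as a transcription factor, had 962, 499 and 952 in NS against 138, 108 and 133 in PE RNA. MYB16, a transcription factor of epidermal cell shape and cuticle, had 299, 287 and 323 in NS against 69.0, 42.3 and 50 in PE RNA. CAX7, a calcium exchanger, had 1067, 618 and 774 in NS against 191, 131 and 126 in PE RNA. None of these groups of 3 overlapped. AT3G53250, AT5G23480, AT2G19650 and AT3G09670, which the tables leave without a name, completed the 12 richest in NS RNA with ratios of 2.28, 2.22, 2.14 and 2.11. For all 12 genes the adjusted p of limma's fit lay between 0.00036 and 0.00194.

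The level of these 12 transcripts in total RNA moved in either direction during the hour. RPP4, MYB16 and CAX7 fell in total RNA between 0 h and 1 h, by 1.23, 1.35 and 1.41 on the log2 scale, and yet were among the richest in new RNA. CAX7, for example, had total signals of 309, 324 and 242 after 1 h and of 829, 681 and 808 at 0 h. AT5G23480 rose, with 111, 92.3 and 138 after 1 h against 3.96, 36.3 and 11.3 at 0 h. The other 8 were not called in total RNA.

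The transcripts richest in PE RNA included a pathogen-response protein, an enzyme of lipid use, a lectin and a subunit of photosystem II. OSM34, an osmotin-like protein of the pathogen-response family, had signals of 49.5, 94.7 and 8.43 in NS RNA against 1654, 3108 and 882 in PE RNA. Its ratio was -5.98 ± 0.95. ICL, isocitrate lyase of the glyoxylate cycle by which seedlings use stored lipid, had 38.9, 50.6 and 8.36 in NS against 1072, 1679 and 887 in PE RNA, a ratio of -5.90 ± 1.05. AT4G33720 had the lowest ratio of all, -7.89 ± 3.3, with 1.37, 2.40 and 13.9 in NS against 1081, 1397 and 183 in PE RNA. For these 3 genes the NS signals were at or near background, and with 32 added the ratios were -4.83, -4.61 and -4.56, so the order among them is not settled.

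Other transcripts rich in PE RNA had NS signals above the limit of 50. DI19, a zinc finger protein named for its induction by drought, had 622, 820.2 and 767 in NS against 11844, 11283 and 14448 in PE RNA, a ratio of -4.47 ± 0.26. AT5G03880 had 289, 360.0 and 337 in NS against 4561, 4881 and 4666 in PE RNA, a ratio of -4.22 ± 0.12. JAL22, a jacalin-related lectin, had 121, 148 and 139 in NS against 2096, 2655 and 1789 in PE RNA. The fractions lay more than 10-fold apart in each of these genes, far beyond the spread of either. AT1G12010, AT5G57655, AT1G23130 and AT1G62290 had ratios of -4.43, -4.28, -4.17 and -4.04. AT1G67865 had 33.7, 35.7 and 36.6 in NS against 685, 689 and 712 in PE RNA and a ratio of -4.68 ± 0.04, but its NS signals were all below 50, and with 32 added the ratio was -3.77. The loci on either side of it by number, AT1G67860 and AT1G67870, which were looked up after its value was seen, had ratios of -5.34 ± 2.14 and -4.70 ± 1.24, also with mean NS signals below 50. None of the 12 genes richest in PE RNA was called in total RNA between 0 h and 1 h.

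**Figure D2:**
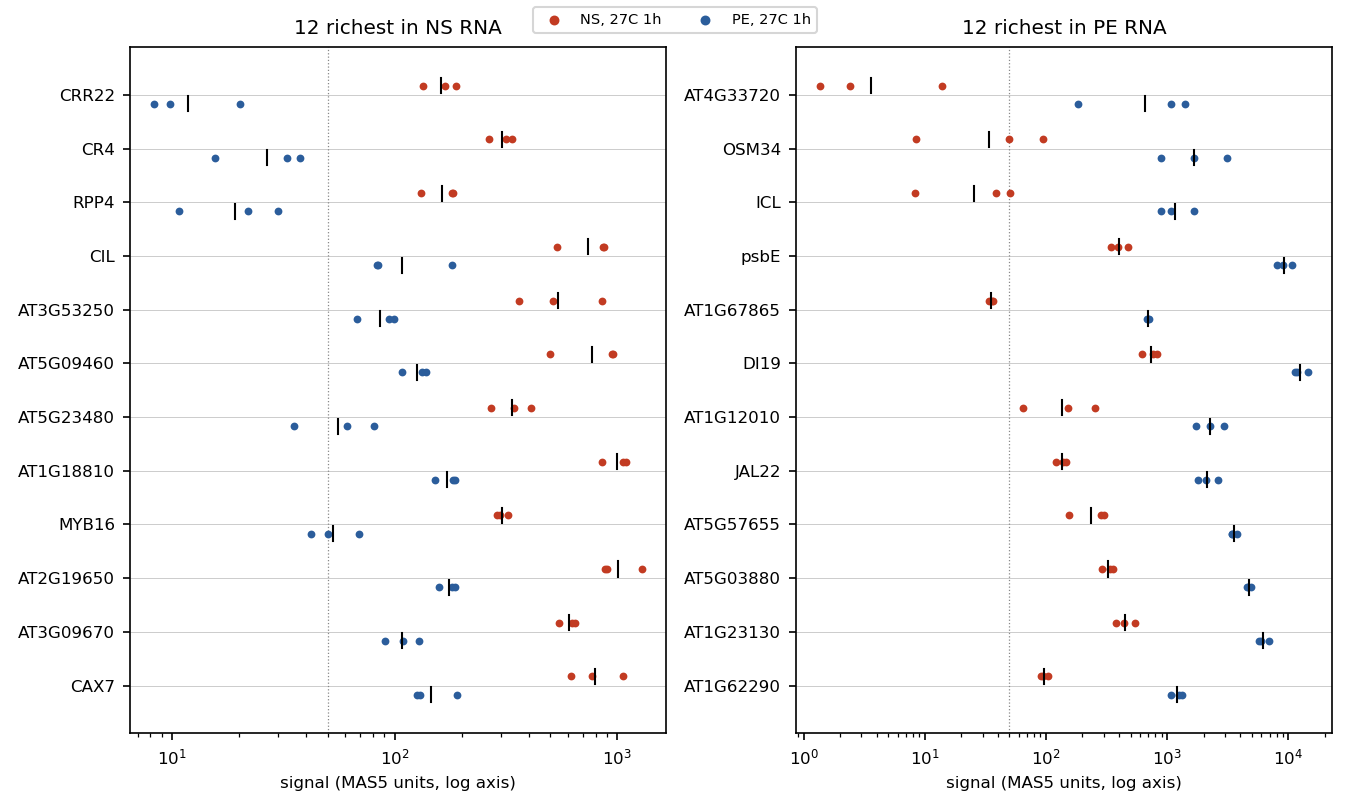
Signals (MAS5 units, log axis) of the 12 genes richest in NS RNA (left) and the 12 richest in PE RNA (right) at 27°C, with NS above PE in each row, 1 point per array, black bars at geometric means and a dotted line at the signal of 50. NS and PE points are separated in every row, and AT4G33720, OSM34, ICL and AT1G67865 have NS signals at or near the dotted line or below it on most arrays.

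Regulatory gene groups leaned toward NS RNA. Most of these lists were filled by words in the symbols or in the annotation of the study's supplementary table, of which the first 1999 entries were held. That table covers only genes whose rates were derived from these samples, so its choice is not independent of the ratio. Over the 1988 tested probe sets it annotates, 318 were richer in NS (16%) and 291 in PE RNA (14.6%), the median ratio was 0.14, and none was called up in total RNA. Of 138 transcription factor genes, 39 were richer in NS RNA (28.3%) and 6 in PE RNA (4.35%), with a median ratio of 0.56 and 108 of the 138 above the median transcript. Beside AT5G09460 and MYB16, BLH2, a homeodomain protein of leaf margins, had 742, 670.0 and 665 in NS against 156, 80.4 and 140.5 in PE RNA, a ratio of 2.14 ± 0.46. KAN2, which specifies the lower leaf surface and was named after its value was seen, had 379, 388 and 360.1 in NS against 96.8, 77.1 and 99.8 in PE RNA. IAA9, a repressor of auxin response, was the opposite extreme with 914, 1360.5 and 1357 in NS against 4163, 4457 and 4063 in PE RNA and a ratio of -2.21 ± 0.32. HMGB1, a chromatin protein counted in the list, had -2.14 ± 0.24.

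Signalling genes also leaned toward NS RNA. Of 79 protein kinase genes, 25 were richer in NS (31.6%) and 3 in PE RNA (3.8%), with a median of 0.62, where the probe sets of the study's table gave 16%, 14.6% and 0.14. CIPK20, a kinase that binds calcium sensors, had 1073, 962 and 992 in NS against 274, 228 and 229 in PE RNA, a ratio of 1.67 ± 0.08. THE1, a receptor kinase that monitors the cell wall, was named after its value was seen and had 1046, 1700.1 and 1096 in NS against 326, 295 and 287 in PE RNA. The receptor kinase genes AT5G67200 and AT5G10020 and the kinase gene AT5G47070 had ratios of 1.76, 1.72 and 1.67. Of 12 disease resistance and leucine-rich repeat genes, 5 were richer in NS and 0 in PE RNA (median 0.56), namely AT5G46450 at 1.94, LAZ5 at 1.71, AT5G43740 at 1.45, RPS4 at 1.4 and RPP5 at 1.27. RPP4, which the words used did not put on that list, lay above all of them.

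Pentatricopeptide repeat proteins, which bind and process organelle RNA, had the highest median of any list, 0.97. Of 21, 10 were richer in NS RNA (47.6%), 0 in PE RNA and 11 were not called, where the probe sets of the study's table gave 16% and 14.6%. CRR22, which the words used did not put on this list, lay above all 21 with a ratio of 3.40. AT1G31920 had 794, 757 and 714 in NS against 202, 144 and 143 in PE RNA, a ratio of 1.85 ± 0.22, followed by AT5G65560 at 1.83, AT5G25630 at 1.58 and AT5G47360 at 1.47. The median total signal of the list was 131, against 419.7 over all tested probe sets. Of 37 genes of the F-box and ubiquitin pathway, 6 were richer in NS (16.2%, where the probe sets of the study's table gave 16%) and 1 in PE RNA (median 0.21). The 1 was AT5G42190 (ASK2, a subunit shared by many ubiquitin ligases), with 1481, 1282 and 1254 in NS against 5696, 4811 and 4920.1 in PE RNA and a ratio of -2.32 ± 0.02, whereas the F-box genes AT1G57790 and AT5G49610 had ratios of 1.59 and 1.37 and the ligase gene AT4G36550 of 1.51.

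**Figure D3:**
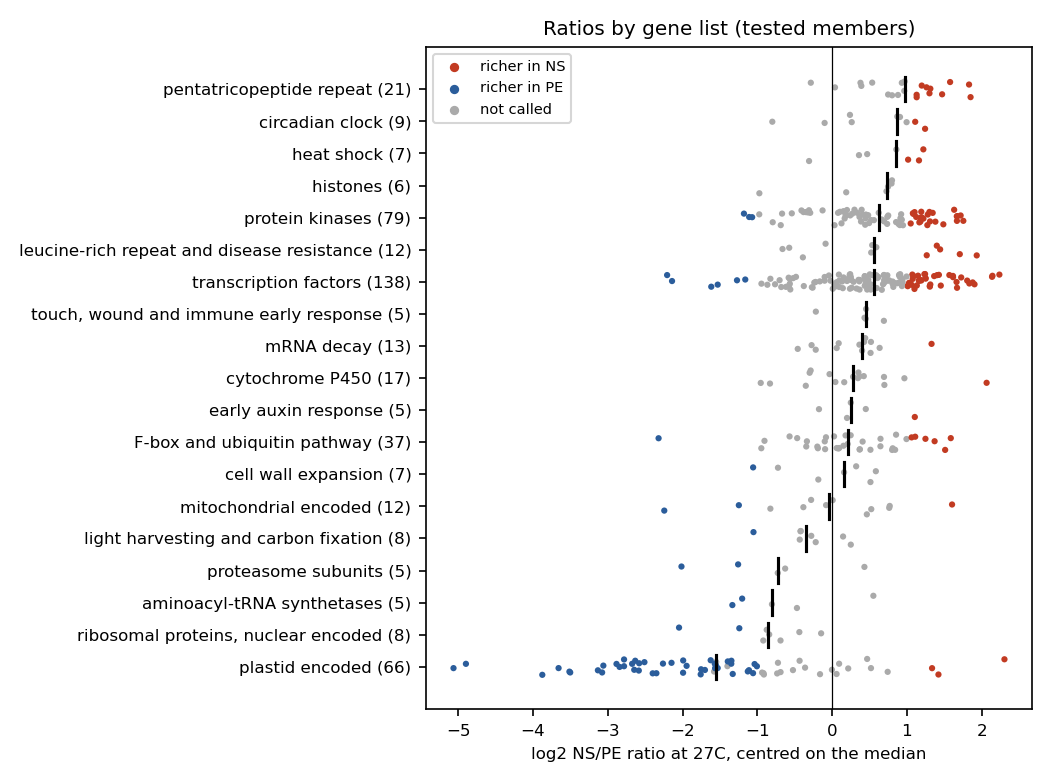
Centred log2 NS/PE ratio at 27°C of the tested members of each gene list with at least 5 of them (number in brackets), 1 point per gene in the colour of its call, with a black bar at the list's median and lists ordered by it. The medians run from 0.97 for pentatricopeptide repeat proteins to -1.56 for plastid-encoded genes.

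Of 9 clock genes, 2 were richer in NS (22.2%) and 0 in PE RNA (median 0.87), where the probe sets of the study's table gave 16% and 14.6%. These 9 were the only ones of 27 listed loci with a named probe set. In total RNA 1 of the 9 rose and 5 fell, where all tested probe sets gave 6.46% and 5.96%. Among the 1988 probe sets of the study's table, which annotates 8 of the 9, 0 rose and 177 fell. RVE1, a MYB factor of the morning, had 1421, 1458 and 1232 in NS against 396, 434 and 509 in PE RNA, a ratio of 1.24 ± 0.30, although it fell in total RNA to 635, 741 and 668 after 1 h, against 1503, 1559 and 1396 at 0 h. ZTL, a photoreceptor that targets clock proteins for degradation, had 1.11 ± 0.37, and 0.98, below the 2-fold limit, without replicate 2. GI had a ratio of 0.91 ± 0.20 and TOC1 of -0.80 ± 0.46, and neither was called at 2-fold. TOC1, a repressor of the evening, fell in total RNA to 149, 185 and 143 after 1 h, against 553, 574 and 509 at 0 h.

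Of 7 heat shock genes, 3 were richer in NS and 0 in PE RNA (median 0.86), and 4 rose in total RNA. All tested probe sets gave 12.9%, 18.4% and 6.46%. The list was drawn up with 26 loci, of which only these 7 had a named probe set. Fes1A, a helper of the Hsp70 chaperone, had 3821, 4447 and 5162 in NS against 1401, 1171 and 1919.7 in PE RNA, a ratio of 1.22 ± 0.28, and rose by 2.71 (log2) in total RNA. The heat shock factors HSF1 and HSFB2A had ratios of 1.16 ± 0.32 and 1.02 ± 0.26, were not called in total RNA, and fell short of 2-fold without replicate 2 (HSF1, 0.99) or without replicate 1 or 3 (HSFB2A, 0.96 and 0.92). The small heat shock gene AT1G54050 had the largest rise of the list in total RNA, to 2924, 2937 and 4593 after 1 h, against 153, 76.3 and 134 at 0 h. Its PE signals of 1949, 2441 and 3106 after 1 h, beside 4598, 5529 and 7639 in NS RNA, were also far above the total signal at 0 h, and its ratio of 0.86 ± 0.07 was not called. Fes1A likewise had a mean PE signal of 1497 against a mean total signal of 336 at 0 h. PE RNA of these genes therefore cannot be read as RNA from before labelling alone. How much of it was made during the hour was not tested. AT1G53540, another gene of this list, rose by 4.07 in total RNA and had a ratio of 0.36 ± 0.57.

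Several small lists had medians above 0 with few or no calls. Of 6 histone genes none was called (median 0.74), and HTA7, an H2A histone, had 1103, 1285 and 1116 in NS against 540.1, 558 and 503 in PE RNA, a ratio of 0.75 ± 0.09. The linker histone HIS1-3, at -0.97 ± 0.76, was the 1 of 6 below the median transcript. Of 13 mRNA decay genes 1 was called (7.69%, below both shares richer in NS RNA), AT1G79090 at 1.33 (median 0.40). Of 5 early auxin response genes, DFL1, which joins auxin to amino acids, was called at 1.11 (median 0.25). CYP96A1, at 2.07, was the only one called of 17 cytochrome P450 genes (5.88%, also below both shares, median 0.28). E2F1, a cell cycle regulator, was called at 1.57 among 2 cell cycle genes. None of 5 touch, wound and immune early response genes was called (median 0.45), with ERF-1 furthest at 0.69 ± 0.91. UGT74B1 of glucosinolate synthesis (0.17) and the aquaporin SIP1;2 (0.86) were each alone in their list and not called.

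All 8 nuclear genes of ribosomal proteins lay below the median transcript, with 2 of 8 richer in PE RNA (25%, median -0.86). All tested probe sets gave 18.4%, and the brightest of 4 equal classes by total signal, into which the list's median signal of 5136 falls, gave 37.3%. AT5G65220, of the L29 family, had 1788, 1887 and 2493 in NS against 7344, 5318 and 6905 in PE RNA, a ratio of -2.05 ± 0.32. RPL27 had -1.24 ± 0.24. The list's median was -0.24 after quantile normalization and -0.48 without centring, with 1 call in each. Of 5 proteasome genes, PBB2 (20S core) and RPT3 (ATPase ring) were richer in PE RNA at -2.01 ± 0.20 and -1.26 ± 0.37 (median -0.73, but -0.34 after quantile normalization and -0.35 without centring, with 1 call in each). PBB2 had 351, 419 and 333 in NS against 1165, 1103 and 1145 in PE RNA. Of 5 genes of aminoacyl-tRNA synthesis, ALATS and ERS were called at -1.20 ± 0.32 and -1.33 ± 1.21 (median -0.80). Without centring neither was called (limma, ALATS at -0.82, short of 2-fold, and ERS at -0.95 with an adjusted p = 0.103). ERS was uneven, with 100, 357 and 67.8 in NS against 254, 268 and 259 in PE RNA, and its call was lost without replicate 1 (adjusted p = 0.181) or replicate 3 (adjusted p = 0.136).

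Of the 4 tested genes often used as references in RT-PCR, AT4G34270 was richer in PE RNA at -1.09 ± 0.12, and the list's median was -0.67. The call fell short of 2-fold without centring (-0.71) and with a minimum total signal of 200 (-0.93). The list's median was -0.29 without centring and -0.16 after quantile normalization. Over all tested probe sets 18.4% were richer in PE RNA, and over the brightest of 4 equal classes by total signal 37.3%. Of 3 splicing genes, ATU2AF35A, which recognizes the 3' splice site, was richer in PE RNA at -1.58 ± 0.23. DYL1, known from dormant buds and starved tissue, was the 1 called of 3 genes of dark and sugar starvation, with 329.6, 308 and 270.2 in NS against 1273, 2217 and 1157 in PE RNA and a ratio of -2.68 ± 0.49. It also fell in total RNA by 1.18. XTH18, a cell wall enzyme, was called at -1.06 ± 0.40 among 7 genes of wall expansion (median 0.16). The call was lost without replicate 2 (-0.83), without the pairing (adjusted p = 0.114) and under 5 other settings. Nuclear genes of light harvesting and carbon fixation lay near the median transcript, with 1 of 8 called, LHCB4.1 at -1.05 ± 0.21 (median -0.35), which was -0.94 and not called without replicate 2. That list's median was above 0 without centring (0.03) and after quantile normalization (0.17). RCA had -0.22 ± 0.12, EXPA7 was called at -1.23 ± 0.15, and 0 of the 3 genes with primers in the study that could be measured was called (AT3G23550 at 0.52 ± 1.08, AT1G19430 at 0.25 ± 0.61 and AT4G38020 at -0.46 ± 0.23).

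Genes encoded in the plastid formed the group furthest toward PE RNA. Of 66 tested, 43 were richer in PE RNA (65.2%), 3 in NS RNA (4.55%) and 20 were not called, with a median ratio of -1.56. All tested probe sets gave 18.4% and 12.9%. The brightest of 4 equal classes by total signal, into which the list's median signal of 1505 falls, gave 37.3% and 5.24%. The neighbouring genes psbE, psbF, psbL and psbJ, which form 1 operon and code for small subunits of photosystem II, were alike. psbE, a subunit of cytochrome b559, had 476, 347 and 396 in NS against 8096, 10775 and 9044 in PE RNA, a ratio of -4.90 ± 0.44, which placed it among the 12 genes richest in PE RNA. Ratios were -3.66 ± 0.48 for psbF, the partner subunit, -3.50 ± 0.33 for psbL and -3.06 ± 0.20 for psbJ. All 5 genes of photosystem I were richer in PE RNA (median -2.15), as were 10 of 15 of photosystem II, 5 of 6 of the ATP synthase, 6 of 9 of the NDH complex, 4 of 5 of the cytochrome b6f complex and 9 of 14 of ribosomal proteins. None of the 3 genes of the plastid RNA polymerase was called, with ratios of -0.43 to 0.09.

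A few plastid genes went the other way. psbN, which lies on the opposite strand within the psbB gene cluster, had 1405, 1235 and 1833 in NS against 202, 107 and 552 in PE RNA, a ratio of 2.31 ± 0.89. rbcL, the large subunit of rubisco, had 5007, 2190.4 and 2662 in NS against 717, 759 and 1266 in PE RNA, a ratio of 1.42 ± 0.90. matK, a splicing maturase, had 4807, 8290.3 and 3911 in NS against 1750.1, 1389 and 1806 in PE RNA, a ratio of 1.34 ± 0.76. NS and PE signals did not overlap in any of the 3.

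The plastid ratios were less even between pairs than those of other genes, with a median SD of 0.74 against 0.254 over all tested probe sets. Pair 3 gave the lowest ratio in 52 of the 66. psbB, a core antenna of photosystem II, had 68.2, 119 and 45.5 in NS against 226, 248 and 4451 in PE RNA, and psaC, an iron-sulfur subunit of photosystem I with a ratio of -5.06 ± 3.37, had 28.5, 50 and 4.28 in NS against 557, 144 and 1298 in PE RNA. The NS signals of psaC were at or below 50, its ratio was -3.53 with 32 added, against -4.75 for psbE, and its call was lost without replicate 1 (adjusted p = 0.0623) and without the filter on low signals (adjusted p = 0.109). In 9 of the 66, ndhG among them (51.2, 109 and 118 in NS, 1312, 279.6 and 2588 in PE and 80.4, 193 and 141 in total RNA), the PE mean was over 3 times the mean of total RNA. NS and PE arrays did not overlap in 36 genes with PE above NS and in 6 with NS above PE. These 2 counts use signals before centring, where the median transcript was brighter in NS RNA. They have no count over all tested probe sets beside them. Without replicate 3, 3 of the 66 were richer in NS and 38 in PE RNA, and the median was -1.19. Without the filter on low signals, 1 was called richer in NS and 20 in PE RNA. For the 65 tested at both temperatures the median was -1.55 at 27°C after 1 h and -0.74 at 17°C after 2 h, and by limma 0 were called different between these, with 0 higher and 16 lower at 27°C at an unadjusted p under 0.05. Of 12 probe sets of mitochondrial genes, 2 were richer in PE (nad4 at -2.24 ± 1.81 and cox2 at -1.25 ± 0.21) and 1 in NS RNA (nad1 at 1.61 ± 0.34), with a median of -0.04, and the 3 other probe sets of nad1 gave 0.47 to 0.77. nad4 had 19.8, 261 and 27.4 in NS against 215, 241 and 132 in PE RNA, and its call was lost without replicate 1 (adjusted p = 0.116), replicate 3 (adjusted p = 0.0697), the pairing (adjusted p = 0.0532) or the filter (adjusted p = 0.156).

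**Figure D4:**
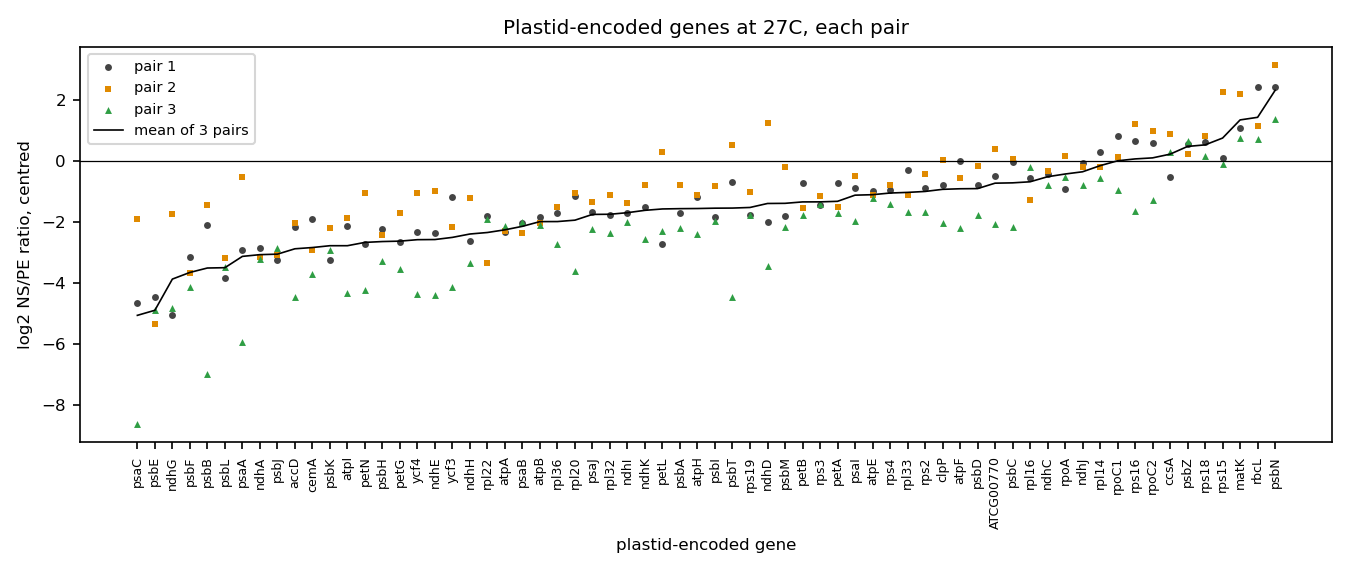
Centred log2 NS/PE ratio (vertical axis) of the 66 plastid-encoded genes tested at 27°C, ordered by the mean of the 3 pairs (line), 1 symbol per pair. The triangles of pair 3 are the lowest symbol for 52 genes, and psbN, rbcL and matK lie at the right end above 0 in all pairs.

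Signal and gene length moved with the ratio. Probe sets richer in NS RNA had a median total signal of 289, those richer in PE RNA one of 1049.9 and those not called one of 385. With the tested probe sets cut into 4 equal classes by total signal, 5.24% of the brightest class were richer in NS and 37.3% in PE RNA, and 16.3% of the dimmest class were richer in NS and 10.2% in PE RNA. Across the 13964 probe sets, measured on arrays of the same RNA, Spearman's rho of ratio and total signal was -0.32. For nuclear genes with a length in RefSeq (introns included), the median was 3027 bp among those richer in NS, 2055 bp among those richer in PE RNA and 2393 bp among those not called, and rho was 0.22 (n = 8276). The part of signal and of length in the ratio was not tested.

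The control probe sets for the ends of actin mRNA differed between fractions. Their 5' over 3' signal ratio was 0.0820, 0.0447 and 0.0825 in NS RNA, against 0.298, 0.342 and 0.253 in PE RNA and 0.286, 0.304 and 0.323 in total RNA. For GAPDH mRNA it was 0.813, 0.605 and 0.766 in NS against 1.1, 1.03 and 1.12 in PE RNA. Neither control overlapped between the fractions, and an exact two-sided permutation test gave p = 0.1 for each, the smallest that 3 arrays against 3 allow. This test, also used for the other controls here, ignored the pairing of the fractions by extract. For ubiquitin the ranges overlapped (exact permutation p = 0.4). The control for 25S rRNA read 2814, 6366 and 2724 in NS against 733, 1153 and 612 in PE RNA (exact permutation p = 0.1). How far these differences enter the ratios of other genes was not tested.

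A probe set is also not a whole gene. For 47 loci 2 probe sets were tested, and their ratios differed by a median of 1.08, by at most 3.08, with Pearson's r of 0.43 across loci. Both were called richer in PE RNA at 9 loci and both richer in NS RNA at 1, exactly 1 of the 2 was called at 23, neither at 14, and opposite calls occurred at 0.

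The change of total RNA between 0 h and 1 h at 27°C was compared with the ratio as a measure that uses the time 0 arrays, although total RNA after 1 h is the RNA that was fractionated. In total RNA 902 probe sets rose (6.46% of those tested) and 832 fell (5.96%). Of those that rose, 265 were richer in NS RNA (29.4%, where all tested probe sets gave 12.9%) and 26 in PE RNA (2.88%, where all gave 18.4%). Of those that fell, 107 were richer in NS (12.9%) and 100 in PE RNA (12.0%). With the tested probe sets cut into 10 equal classes by ratio, 15.5% of the highest class and 0.573% of the lowest rose in total RNA. The share that fell lay between 3.51% and 7.88% in every class. Over all probe sets, Spearman's rho of ratio and change was 0.06.

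The same ratio at 17°C after 2 h of labelling was close to that at 27°C after 1 h. Over the 13561 probe sets tested at both temperatures Spearman's rho was 0.91, a description across probe sets and not across replicates. The interquartile range of the ratios was 1.39 at 27°C and 1.51 at 17°C. Temperature and labelling time differ together between these groups and cannot be told apart. At an adjusted p under 0.05 and a 2-fold difference, the ratio was higher at 27°C for 52 probe sets (0.383%) and lower for 99 (0.73%). In all of these the 3 pairs at 27°C did not overlap the 3 at 17°C. Since they were chosen by a test on the same ratios, that separation adds no further support.

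The 99 probe sets with a lower ratio at 27°C had a median ratio of -1.40 at 27°C against 0.03 at 17°C. AT2G15880 had ratios of -2.53, -3.11 and -2.40 at 27°C against 0.10, 1.38 and -0.23 at 17°C, a difference of -3.09 (95% confidence interval -4.01 to -2.18, adjusted p = 0.0237). It fell in total RNA at 27°C, to 118, 217 and 92.9 after 1 h, against 628, 522 and 729 at 0 h. AT2G43620 had -3.27, -3.53 and -3.31 at 27°C against -1.30, -0.24 and -0.65 at 17°C, a difference of -2.64. AT4G33490 had -2.77, -2.51 and -2.75 at 27°C against -0.47, -0.07 and -0.00 at 17°C. AT1G62290, one of the 12 richest in PE RNA, differed by -2.37 and AT4G31330 by -2.61, the last with NS signals of only 2.52, 15.4 and 32.3 at 27°C. Of the 99 probe sets, 63 were called richer in PE RNA at 27°C, 18 fell in total RNA during the hour and 2 rose. All probe sets tested at 27°C gave 18.4%, 5.96% and 6.46%. The calls at 27°C use the same ratios by which the 99 were chosen as low, so the 63 are partly built in.

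Of the 52 probe sets with a higher ratio at 27°C, 3 were called richer in NS and 19 in PE RNA at 27°C, and their median ratio was -0.55 at 27°C against -1.79 at 17°C. All probe sets tested at 27°C gave 12.9% richer in NS and 18.4% richer in PE RNA. THIC, an enzyme of thiamine synthesis, had -1.14, -1.76 and -1.38 at 27°C against -2.86, -2.71 and -3.17 at 17°C, a difference of 1.49 (95% confidence interval 0.98 to 1.99, adjusted p = 0.0324). AT3G44620 had -1.80, -1.50 and -1.70 at 27°C against -3.07, -3.08 and -3.76 at 17°C, a difference of 1.63. AT5G01870, AT2G36885 and AT3G15520 differed by 1.61, 1.54 and 1.52. AT2G36885 had a ratio of 0.06 at 27°C against -1.48 at 17°C and rose by 1.18 in total RNA. Of the 52 probe sets 17 rose in total RNA and 0 fell, where all tested probe sets gave 6.46% and 5.96%. With all pairs, 1409 probe sets had a higher and 1308 a lower ratio at 27°C at an unadjusted p under 0.05 (limma). The counts of calls, 52 and 99, fell whichever pair was left out. They were 6 and 22 without 27°C replicate 1, 32 and 62 without 27°C replicate 2, 0 and 3 without 27°C replicate 3, 0 and 7 without 17°C replicate 1, 0 and 1 without 17°C replicate 2 and 1 and 3 without 17°C replicate 3 (higher and lower at 27°C, limma, where each fit still gave at least 968 in each direction at an unadjusted p under 0.05). Without the pairing of fractions by replicate number they were 16 and 38. Of 440 list members tested at both temperatures, 0 were called higher at 27°C (17 at an unadjusted p under 0.05) and 1 was called lower (66 at an unadjusted p under 0.05), the transcription factor WRKY6 (difference of -1.11, named after its value was seen).

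**Figure D5:**
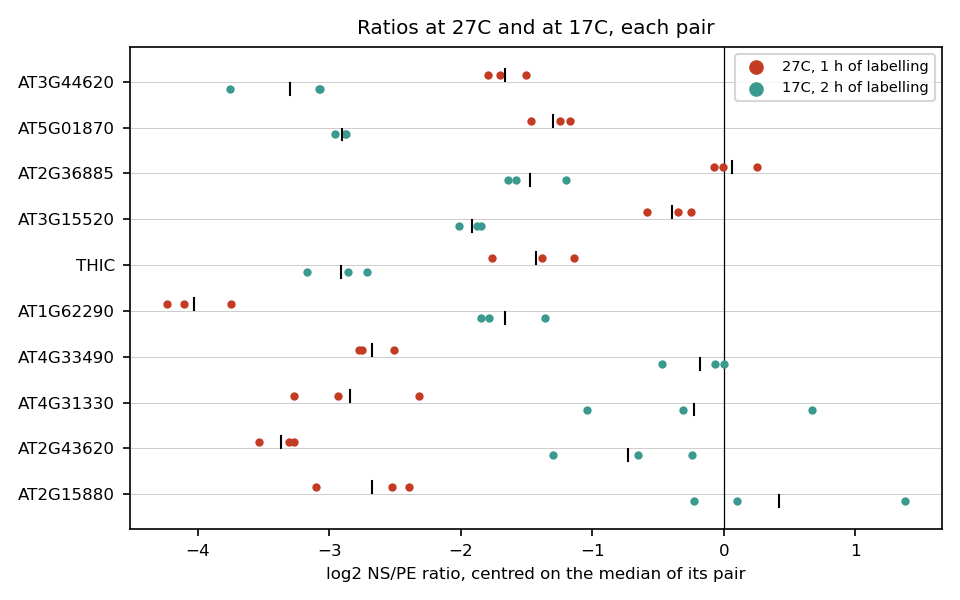
Centred log2 NS/PE ratio of each pair (horizontal axis) for the 5 genes with the highest and the 5 with the lowest difference between 27°C (upper points of each row) and 17°C (lower points), with black bars at the means of 3 pairs. The pairs of the 2 temperatures do not overlap in any row, and 4 of the 5 genes with a lower ratio at 27°C have means of -0.73 to 0.42 at 17°C.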

How the data were processed

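Total, NS and PE RNA were hybridized to Affymetrix ATH1 arrays, 1 array per sample and 3 biological replicates per group by the study's methods. The deposited intensities are MAS5 signals on a linear scale, which the authors scaled to a common trimmed mean. The MAS5 version and the genome build are not given in the sources used here. The study's own regression of total RNA on the fractions was not repeated, and detection calls were not used. Array number limits the precision.

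Signals were taken to log2, and NS minus PE was formed within each replicate number, since both fractions came from 1 extract. NS and PE arrays of the same number deviated together from their group means (r of 0.141, 0.203 and 0.189, against -0.181 to 0.0262 for other numbers). Each pair was centred on its median, and the mean of 3 was tested against 0 with limma 3.58.1 (R 4.3.3, lmFit and eBayes) and Benjamini-Hochberg adjustment over the 13964 probe sets with total signals of at least 50 after 1 h at 27°C. A probe set was called at an adjusted p under 0.05 and a difference of at least 2-fold. The difference between 27°C and 17°C was fitted on the 6 centred ratios of 13561 probe sets above the same limit at both temperatures. Total RNA after 1 h was compared with 0 h, 3 arrays against 3 without a block, and since the filter was on the 1 h arrays, transcripts that fell below it are not counted. The fit was tested on simulated data.

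Probe sets were named through the platform annotation, RefSeq (TAIR10.1 by the table) and, for 823 of them, a supplementary table of the study held in part. Of the 22746 probe sets, 526 matched several genes and 7884 none, and these were not named. Named genes were the 12 richest in each fraction, ranked by the bound of the 95% confidence interval nearest to 0, up to 4 called members of each list, the genes with primers in the study, and the 5 highest and 5 lowest differences between temperatures. Where a locus had several probe sets, the brightest in total RNA was used. Outside this rule, AT1G53540, AT1G54050, GI, TOC1, HTA7, HMGB1, RPP5, psbB, psbJ, psbL, psbN, rbcL and matK were named after their values were seen, as were the genes so marked in the text. The members and lists were chosen with earlier results of these data known. Where a list was fixed by locus, only part of its loci had a named probe set. For light harvesting and carbon fixation these were 8 of 41, and for mRNA decay 13 of 27. Alternatives were no centring, quantile normalization, other filters, an added 32, no pairing, other call rules and leaving out each replicate. Error values are SDs over 3 pairs. Python 3.11.15, pandas 2.3.3, scipy 1.17.1 and matplotlib 3.10.9 were used for summaries, exact tests and plots.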

Additional observations from a re-analysis of the deposited data

Results flagged for a closer look

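The 10 named genes whose NS/PE ratio differed between 27°C after 1 h and 17°C after 2 h stood out by the test of that difference (limma, adjusted p between 0.0073 and 0.037). The ratio was lower at 27°C by a log2 difference of -3.09 for AT2G15880, -2.64 for AT2G43620, -2.61 for AT4G31330, -2.50 for AT4G33490 and -2.37 for AT1G62290. It was higher at 27°C by 1.63 for AT3G44620, 1.61 for AT5G01870, 1.54 for AT2G36885, 1.52 for AT3G15520 and 1.49 for THIC. In all 10 genes the 3 pairs at 27°C lay on 1 side of the 3 pairs at 17°C, but the genes were chosen by these same ratios. Without the filter on low signals, or without 17°C replicate 2, 0 of the 10 passed the test, though every difference kept its sign. Temperature and labelling time cannot be told apart here.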

How the results depend on the processing

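At 27°C the counts richer in NS and PE RNA were 3542 and 1585 without centring, and 4284 and 4646 by adjusted p alone. Under the other settings they stayed within 1.5 times of 1804 and 2571, including 1789 and 2545 without the replicate block, and leaving out 1 replicate gave 1749 to 1926 and 2538 to 2624. For the difference between 27°C and 17°C, the counts with a higher and a lower ratio at 27°C were 79 and 76 without centring, 110 and 157 after quantile normalization, 87 and 166 with 32 added, 16 and 38 without the replicate block, and 0 and 0 without the filter on low signals (limma, 1486 and 1174 at an unadjusted p under 0.05). Leaving out 1 replicate gave 0 to 32 higher and 1 to 62 lower, from at least 986 and 968 at an unadjusted p under 0.05. For total RNA at 27°C, under alternatives chosen after seeing the data, 766 to 1001 probe sets rose and 749 to 965 fell, among them 911 and 829 with a replicate block. Without centring RCA changed sign, to 0.16, and after quantile normalization to 0.092. Leaving out single replicates gave -0.086 to 0.95 for AT3G23550 and -0.0052 to 0.59 for AT1G19430, neither of which was called. Among the named genes' ratios at 27°C, 981 values kept side and call, 47 lost the call, 9 gained it and 4 changed sign, these being the values of RCA, AT3G23550 and AT1G19430. Of the list medians, 249 of 322 moved by less than the spread between pairs and 73 by more. The cause of these changes was not tested. Signals under 50 limit the lowest ratios, since the weaker fraction averaged less than that in 82 of the NS-rich and 122 of the PE-rich probe sets. The amount of RNA in each fraction is unknown, so all ratios are relative to the median transcript.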
